A study of Mus musculus with 12 samples.

Results

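The data describe 10 mouse genes of bone morphogenetic protein (BMP) signalling and of the inhibitor of DNA binding (Id) family, out of 25655 genes listed in the deposited tables. The members were named by symbol: Id1, Id2, Id3 and Id4, the ligand genes Bmp4 and Bmp7, the receptor gene Bmpr1b, and the inhibitor genes Bambi, Smad6 and Smad7. All 10 symbols were found, and all 10 passed the filter on low counts in every comparison. RNA was sequenced in 12 libraries, 3 from each of 4 groups, all labelled male and of strain C57BL/6J. The first group was control whole brain at embryonic day 15, with the genotype given as wildtype and titles reading fy/-. The second was whole brain of the same day from mice labelled (P)RR_CKO, with titles reading fy/cre. The remaining groups were control and (P)RR_CKO primary neurospheres, floating cultures grown from neural stem cells of forebrain regions at embryonic day 16. (P)RR stands for the (pro)renin receptor. Its gene is Atp6ap2, its protein also assists the V-ATPase that acidifies organelles, and the series title places its loss in neural stem cells. The labels name neither the Cre driver nor the deleted stretch of the gene. They do not say whether replicates were separate animals or cultures, so each p-value reflects library-to-library spread alone, which may be technical.

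BMP ligands bind pairs of type I and type II serine/threonine kinase receptors, which phosphorylate Smad1, Smad5 and Smad9, and these enter the nucleus with Smad4 to switch on target genes. Id genes are among the best known direct targets. Id proteins lack a DNA-binding region and hold E proteins away from their partners, the proneural and oligodendrocyte bHLH factors, and in the developing brain they are known for keeping progenitors from differentiating and for a part in astrocyte formation. Bambi, Smad6 and Smad7 are targets of the pathway that dampen it.

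Brain libraries held 5669338 to 6675874 reads over exons and neurosphere libraries 12382975 to 18636787. Non-exonic reads were 63.8 to 65.5% of all reads within genes in the brain libraries, and 7.64 to 14.06% in the neurosphere libraries. Atp6ap2 held 101.3, 102.2 and 100.9 normalised CPM (exon reads scaled to a common library size, by TMM factors) in control neurospheres and 65.66, 51.34 and 56.75 in CKO neurospheres. Its log2 fold change, CKO over control, was -0.81 ± 0.11 (SE, n = 3 per group; edgeR adjusted p = 0.00965), and the adjusted p was 0.0570 both without control 3 (-0.82) and without CKO 2 (-0.73). In brain the fold change was -0.12 ± 0.09 (adjusted p = 0.792), so lower Atp6ap2 was not detected in the brains labelled CKO. Neural stem cell and radial glia markers summed to 6895 to 8911 CPM in neurospheres and 1270 to 1526 in brain. Among control neurospheres the library labelled control 1 stood apart. It held 1 read over 4 Y-linked genes, against 1767 to 2992 in the other neurosphere libraries. This goes against its label as male, so the identity of this library is in doubt. Its Atp6ap2, at 101.3 CPM, lay with controls 2 and 3 and above every CKO library. Its remaining labels could not be checked. Its CPM (log2 after adding 0.5) lay nearer to the CKO mean than to the mean of controls 2 and 3 for 44.6% of 13316 tested genes. The like figure was 20.5% for control 2 and 21.3% for control 3. For the Id and BMP genes control 1 lay nearer to CKO in 6 of 10, namely Id2, Id4, Bmp4, Bmp7, Smad6 and Smad7. The like count was 2 of 10 for control 2 (Id1 and Smad6) and 1 of 10 for control 3 (Smad6). Smad6 thus lay nearer to CKO in every control library. Member results that rest on control 1 are given with and without it.

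The 250 bases before the annotated start are shown for the Id genes and the ligand gene whose neurosphere values differed most between libraries and for which a promoter was at hand. They come from RefSeq on GRCm38.p6, where 6 of the 10 genes had an entry. Capitals mark the letters GGCGCC, a GC-rich sequence of the kind bound by Smad1 and Smad5, and GTCT (AGAC on the other strand), the Smad-binding element bound by Smad4. Id2 lies on the minus strand (chr12:25096093-25096342), Id3 on the plus strand (chr4:136143572-136143821), Id4 on the plus strand (chr13:48260866-48261115) and Bmp4 on the minus strand (chr14:46390670-46390919).
Id2: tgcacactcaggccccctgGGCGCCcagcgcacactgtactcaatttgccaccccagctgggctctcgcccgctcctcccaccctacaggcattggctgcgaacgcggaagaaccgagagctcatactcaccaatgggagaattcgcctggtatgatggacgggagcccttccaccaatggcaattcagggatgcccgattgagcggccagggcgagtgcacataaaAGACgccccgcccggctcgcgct
Id3: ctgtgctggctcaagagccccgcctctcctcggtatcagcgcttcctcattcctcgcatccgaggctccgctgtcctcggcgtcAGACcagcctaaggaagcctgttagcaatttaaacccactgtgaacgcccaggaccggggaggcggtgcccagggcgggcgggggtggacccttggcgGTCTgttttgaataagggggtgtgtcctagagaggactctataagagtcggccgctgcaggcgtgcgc
Id4: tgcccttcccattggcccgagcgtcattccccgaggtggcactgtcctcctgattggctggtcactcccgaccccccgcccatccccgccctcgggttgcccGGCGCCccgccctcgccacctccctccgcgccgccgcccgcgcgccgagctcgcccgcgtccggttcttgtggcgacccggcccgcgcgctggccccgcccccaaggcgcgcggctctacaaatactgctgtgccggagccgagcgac
Bmp4: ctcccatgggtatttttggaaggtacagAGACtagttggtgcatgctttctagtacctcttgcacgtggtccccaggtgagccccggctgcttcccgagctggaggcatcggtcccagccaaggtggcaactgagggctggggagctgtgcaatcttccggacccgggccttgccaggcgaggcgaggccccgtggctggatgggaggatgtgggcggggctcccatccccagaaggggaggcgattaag

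GGCGCC stood once in Id2, beginning 231 bases before the start, and once in Id4, 148 bases before it. It was in neither Id3 nor Bmp4. GTCT was found on either strand once in Id2 (23 bases before the start), in Id3 at 166 and 68 bases, once in Bmp4 (222 bases) and not in Id4. Both strands were searched, and no marked match overlaps another. Of all 32851 promoters of the same length, 9.59% held GGCGCC and 82.9% held GTCT. GC content was 62.8% in Id2 and Id3, 75.6% in Id4 and 63.2% in Bmp4, against a median of 52.4% over all promoters. These matches describe letters only and say nothing of binding in these cells.

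In control brain Id4 was the most abundant of the 10 genes, and in control neurospheres Id1, Id2, Id3 and the receptor gene Bmpr1b were higher than in control brain, while Id4 and the inhibitors Bambi, Smad6 and Smad7 were lower. Of the 10 genes, 4 were higher and 4 lower (edgeR, all 12 libraries in a single fit), where 70.4% of 14415 genes tested were called, 34.9% higher and 35.5% lower. The share of members called is near that of all genes. At an unadjusted p under 0.05 were 9 of the 10, against 73% of all genes, and groups did not overlap for the 8 called genes, against 74.3% of all genes. Tissue, stage, culture and intron share all differ between the groups and cannot be told apart. In whole tissue, fewer cells of a type and less RNA per cell cannot be told apart either.

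Id1 held 9.09, 13.2 and 14.4 CPM in control brain and 31.6, 34.5 and 25.6 in control neurospheres. The groups did not overlap, and the log2 difference, neurospheres over brain, was 1.32 ± 0.17 (edgeR adjusted p = 3.28e-05). Id3 held 13.9, 22.7 and 22.2 CPM in control brain and 72.6, 79.4 and 69.3 in control neurospheres, a log2 difference of 1.92 ± 0.23 (adjusted p = 1.90e-05). Every control neurosphere library was above every control brain for it. Id2 held 55.1, 62.9 and 63.3 CPM in control brain and 70.5, 149.4 and 119 in control neurospheres. The lowest neurosphere value, that of control 1, was close to the brain values, and the log2 difference was 0.90 ± 0.23 (adjusted p = 0.00408). Id4 went the other way, with 330.1, 291.4 and 295.1 CPM in control brain and 31.6, 163.2 and 124.9 in control neurospheres. All 3 neurosphere values were below the brain values, with a log2 difference of -1.52 ± 0.42 (adjusted p = 0.00674), and control 1 was the lowest of them. Without neurosphere control 1 the log2 difference was 1.20 for Id2 (adjusted p = 2.45e-05) and -1.04 for Id4 (adjusted p = 0.000139).

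Bmpr1b, which encodes a type I BMP receptor also called ALK6, held 12.6, 16.6 and 22 CPM in control brain and 97.4, 125.1 and 128.3 in control neurospheres. Its log2 difference of 2.78 ± 0.20 (edgeR adjusted p = 3.62e-07) was the largest of the 10 genes in size. The 3 inhibitor genes among the members were lower in neurospheres. Smad7, which blocks receptors and recruits ubiquitin ligases to them, held 25.1, 27.6 and 26.6 CPM in brain and 3.28, 8.28 and 6.33 in neurospheres (-2.15 ± 0.26; adjusted p = 1.91e-05). Smad6, which preferentially inhibits BMP receptors, held 5.197, 8.29 and 10.3 CPM in brain and 0.400, 1.62 and 1.81 in neurospheres, where these rest on 5, 19 and 24 reads (-2.62 ± 0.48; adjusted p = 0.000428). Bambi, a pseudoreceptor without a kinase domain, held 5.34, 5.75 and 7.58 CPM in brain and 2.48, 2.13 and 1.88 in neurospheres (-1.52 ± 0.33; adjusted p = 0.00138). In all 3 inhibitor genes the groups did not overlap. The ligands were not called by edgeR. Bmp4 held 2.31, 2.71 and 2.68 CPM in control brain and 0.160, 22.7 and 15.3 in control neurospheres, with a log2 difference of 2.31 ± 0.97 (adjusted p = 0.0510). Its brain values lay between those of neurosphere control 1 and of controls 2 and 3, and without control 1 the difference was 2.93 ± 0.33 (adjusted p = 1.17e-05). For Bmp4 this was the only call among the 12 fits that left out 1 library. Bmp7 held 22.8, 20.5 and 27.4 CPM in control brain and 78.7, 21.9 and 25.7 in control neurospheres (0.84 ± 0.39; adjusted p = 0.0768). Here control 1 was high and the others within the brain range. Without control 1 the difference was 0.06 (adjusted p = 0.716), and a call appeared without neurosphere control 2 (1.14; adjusted p = 0.0139) and without control 3 (1.09; adjusted p = 0.0303). DESeq2 called both ligands higher with all libraries (Bmp4 adjusted p = 0.0246, Bmp7 0.0485), where it called 65% of all genes.

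**Figure D1:**
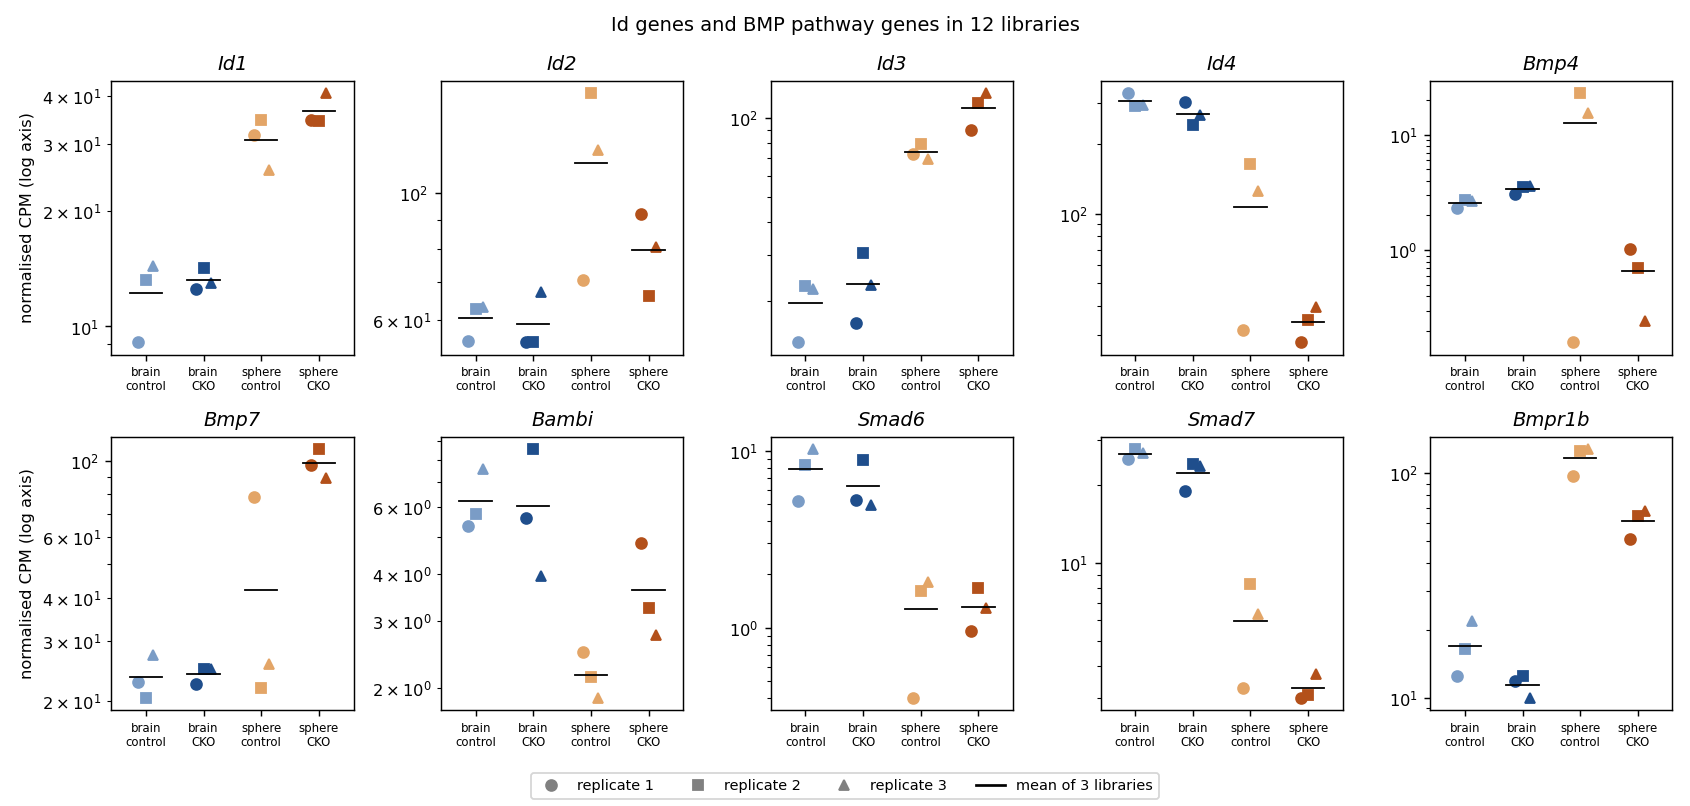
Normalised CPM of the 10 genes (y axes, log scale, different for each gene) in the 4 groups, with a symbol for each of 3 libraries per group and a line at their mean; sphere stands for neurospheres. Id4 was highest in brain, Bmpr1b, Id1 and Id3 were higher in neurospheres, and the circle of control neurospheres (control 1) sat apart from the square and triangle for Bmp4, Bmp7, Id4 and Smad7.

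Scaled for exon length (RPKM, CPM per kilobase of exon), Id4 stood first in control brain at 79.4 ± 5.55 (SD, n = 3), followed by Id2 at 24.8 ± 1.89. Id3 (15.3 ± 3.87) and Id1 (10.6 ± 2.40) came next, and these neighbours overlapped in range. Bmp7 (6.42 ± 0.954) and Smad7 (6.04 ± 0.282) overlapped, as did Bmpr1b (2.86 ± 0.795) with Smad6 (2.66 ± 0.859) and Bmp4 (1.24 ± 0.107) with Bambi (1.23 ± 0.235). In CKO brain the order was the same down to Smad7, and Id2 overlapped Id3, and below Smad7 neighbours among Smad6, Bmpr1b, Bmp4 and Bambi overlapped. In control neurospheres the first places went to Id3 (57.7 ± 4.03), Id2 (46.3 ± 16.3), Id4 (27.7 ± 17.6) and Id1 (26.3 ± 3.89), where neighbours in this order overlapped in range. Bmpr1b (19.6 ± 2.85), Bmp7 (11.5 ± 8.65), Bmp4 (6.16 ± 5.57) and Smad7 (1.36 ± 0.575) followed, below Id1 and again with overlap between neighbours, and Smad6 (0.430 ± 0.257) and Bambi (0.427 ± 0.0593), which overlapped, came last. In CKO neurospheres Id3 (85.3 ± 13.8) stood clear of Id2 (32.6 ± 5.31) and Id1 (31.5 ± 3.00), which overlapped. Bmp7 (26.8 ± 2.58) was then clear of Bmpr1b (10.3 ± 1.504) and Id4 (8.87 ± 1.54), which overlapped. Smad7 (0.748 ± 0.0916), Bambi (0.713 ± 0.214), Smad6 (0.442 ± 0.123) and Bmp4 (0.318 ± 0.191) formed the tail, with overlap between neighbours.

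The make-up of Id RNA is given next to its sum. The summed RPKM of Id1 to Id4 was 127.1, 130.6 and 132.4 in control brain, 125, 121.5 and 125.7 in CKO brain, 121.1, 195.5 and 157.6 in control neurospheres and 144.8, 154.9 and 175.1 in CKO neurospheres. Id4 made up 57.9 to 67.5% of this sum in control brain and 51.8 to 63.0% in CKO brain. In control neurospheres its share was 6.77, 21.7 and 20.6%, and in CKO neurospheres it was 5.00, 5.85 and 5.88%. Control 1 thus stood next to the CKO libraries and not to controls 2 and 3. Id3 made up 8.53 to 13.6% in control brain, 10.3 to 19.6% in CKO brain, 31.8 to 46.9% in control neurospheres and 48.3 to 57.5% in CKO neurospheres. The shares are given as a description, without a test.

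**Figure D2:**
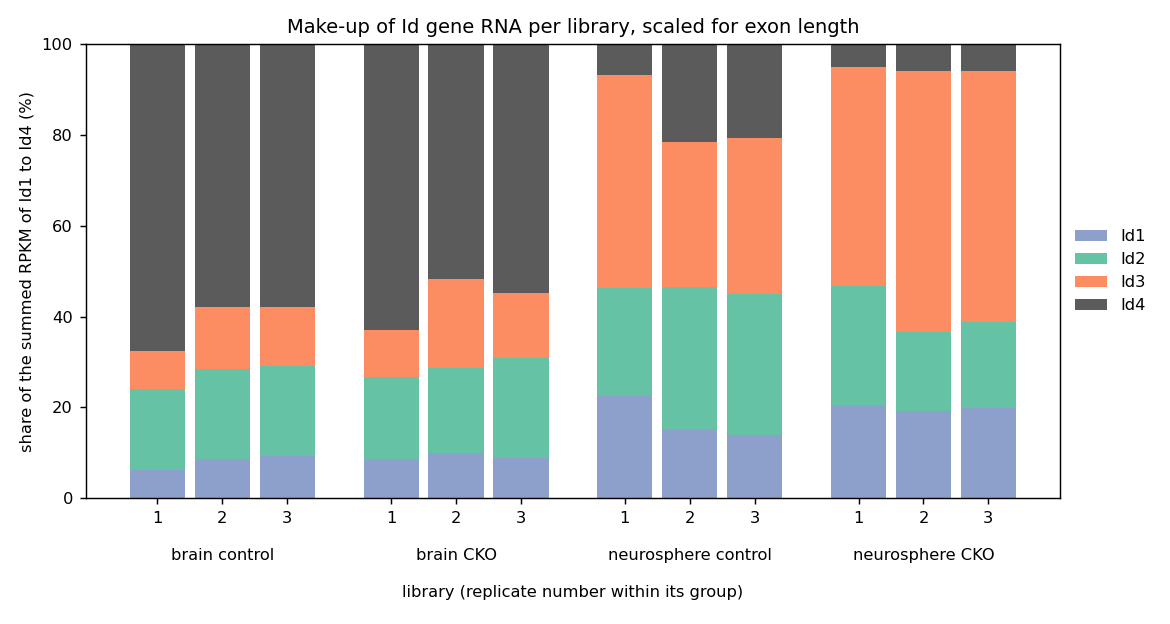
Share of each Id gene (y axis, percent) in the summed RPKM of Id1 to Id4, as a stacked bar per library, with the libraries of each group numbered 1 to 3. Id4 takes 51.8 to 67.5% of the bar in brain and 5.00 to 21.7% in neurospheres, where Id3 takes 31.8 to 57.5%.

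In CKO brain none of the 10 genes was called, at embryonic day 15 and with Atp6ap2 itself not detectably lower. By edgeR 0 were called of 10, where 0.443% of 13557 genes tested were called in either direction. At an unadjusted p under 0.05 there was 1 of 10, Bmpr1b (unadjusted p = 0.0196), where 8.76% of all genes tested passed, and DESeq2 also called 0. The median log2 fold change of the 10 was -0.03, against 0.0032 over all genes. The receptor gene Bmpr1b held 12.6, 16.6 and 22 CPM in control and 11.9, 12.5 and 10.0 in CKO brain. All CKO values lay below all control values, if barely for the highest CKO and lowest control library, with a log2 fold change of -0.56 ± 0.21 (adjusted p = 0.428). Smad7 held 25.1, 27.6 and 26.6 CPM in control and 19.0, 24.1 and 23.7 in CKO brain, without overlap (-0.24 ± 0.12; adjusted p = 0.648). Bmp4 held 2.31, 2.71 and 2.68 CPM in control and 3.06, 3.51 and 3.62 in CKO brain, also without overlap, on 16 to 23 reads per library (0.41 ± 0.28; adjusted p = 0.768). Groups did not overlap for these 3 of 10 genes and for 14.6% of all genes tested.

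The Id genes overlapped between control and CKO brain. Id4, known from knockout mice for keeping neural progenitors dividing, held 330.1, 291.4 and 295.1 CPM in control and 303.4, 242.2 and 265.7 in CKO brain, which overlapped by the highest CKO library (-0.17 ± 0.09; edgeR adjusted p = 0.665). Id3 held 13.9, 22.7 and 22.2 CPM in control and 16.4, 30.4 and 22.9 in CKO brain (0.26 ± 0.26; adjusted p = 0.868). Meningeal fibroblast and pericyte markers summed to 701, 1115 and 1552 CPM in the same control brains and 782.1, 2357 and 823.5 in the CKO brains. In CKO the library with the most Id3 was also the one with the most of these markers. In control, library 2 had the most Id3 and library 3 the most of these markers. The part of these cells in the values was not tested. Of these markers 0 of 10 were called in brain. Of the astrocyte markers 2 of 8 were called lower, namely Aldoc (49.1 to 57.5 CPM in control and 21.4 to 30.4 in CKO brain) and Aldh1l1 (21.9 to 29.1 and 9.81 to 13.6). Of the radial glia markers 1 of 8 was called lower, Fabp7 (216.8 to 259.5 and 131.5 to 135.4). These were named after their values were seen. Of the microglia markers 0 of 5 were called and 4 had an unadjusted p under 0.05. So did 4 of 8 radial glia markers and 3 of 8 neuron markers, against 8.76% of all genes tested. Microglia markers summed to 41.6, 49.4 and 47.9 CPM in control and 53.25, 65.6 and 68.7 in CKO brain. Neuron markers summed to 5659, 5880 and 5458 CPM in control and 4904, 5048 and 5244 in CKO brain. The sums of both lists did not overlap. Of the 8 neuron markers edgeR called 0 and DESeq2 called 1 lower. The part of these cells in the brain values was not tested either. Id1 had a log2 fold change of 0.12 ± 0.18 (adjusted p = 0.917) and Id2 one of -0.03 ± 0.10 (0.971). Bmp7 had 0.04 ± 0.13 (0.971), Bambi -0.03 ± 0.29 (0.990) and Smad6 -0.30 ± 0.30 (0.868). Without control 1 Id1 had -0.06, and the signs of Id2, Bmp7 and Bambi likewise depended on single libraries.

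In CKO neurospheres Id3 rose and Bmpr1b fell, and the other 8 genes did not pass the test with all 6 libraries. Thus 1 of 10 was called higher and 1 lower by edgeR, where 14.7% of 13316 genes tested were called higher and 12% lower, 26.7% in all. With scaling by library size alone the higher and lower calls over all genes went from 1958 and 1595 to 1568 and 1875. The share of members called lay near that of all genes. At an unadjusted p under 0.05 were 5 of 10, against 42.9% of all genes. The median log2 fold change of the 10 genes was -0.23, against -0.02 over all genes. Id3 held 72.6, 79.4 and 69.3 CPM in control and 89.4, 113.8 and 123.8 in CKO neurospheres. Every CKO library was above every control, with a log2 fold change of 0.57 ± 0.14 (adjusted p = 0.0298). The call did not hold without control 2 (0.62; adjusted p = 0.0736), control 3 (0.52; 0.113), CKO 2 (0.53; 0.106) or CKO 3 (0.46; 0.0809), nor with all 12 libraries in a single fit (0.56; 0.0521). Bmpr1b held 97.4, 125.1 and 128.3 CPM in control and 51.2, 64.5 and 68.3 in CKO neurospheres. All CKO values lay below all control values, control 1 included, with a log2 fold change of -0.93 ± 0.15 (adjusted p = 0.0131). This call did not hold without control 2 (-0.88; 0.0511), control 3 (-0.86; 0.0654) or CKO 2 (-0.97; 0.0619). Without control 3 and without CKO 2 edgeR called 0 of all genes, though 4177 and 4282 had an unadjusted p under 0.05. The authors' deposited table listed Id3 with a signed fold change of 1.48 (FDR 0.0469) and Bmpr1b with -1.90 (FDR 0.000399).

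The ligand genes were split by control 1. Bmp4, a ligand made by dorsal midline and other cells of the embryonic brain, held 0.160, 22.7 and 15.3 CPM in control neurospheres, on 2, 266 and 203 reads, and 1.03, 0.697 and 0.244 in CKO neurospheres, on 14, 12 and 3 reads. Controls 2 and 3 were far above all CKO libraries, and control 1 was below all of them. The log2 fold change was -4.23 ± 1.37 (edgeR adjusted p = 0.0622), and without control 1 it was -4.82 ± 0.44 (adjusted p = 0.00159). Bmp7, a ligand of the choroid plexus, meninges and cortical hem, held 78.7, 21.9 and 25.7 CPM in control and 97.4, 108.2 and 89.3 in CKO neurospheres. All CKO values were above all control values, but control 1 was far nearer to them than to the other controls. The log2 fold change was 1.22 ± 0.49 (adjusted p = 0.105), and without control 1 it was 2.05 ± 0.13 (adjusted p = 0.00109). The authors' deposited table listed Bmp4 with a signed fold change of -19.1 (FDR 0.00331) and Bmp7 with 2.35 (FDR 0.0138). Choroid plexus markers summed to 28.5, 45.8 and 46.0 CPM in control and 208.4, 57.2 and 90.9 in CKO neurospheres, with 0 of 4 tested genes called by edgeR and 3 of 4 positive. Meningeal fibroblast and pericyte markers summed to 28.2, 68.8 and 50.2 CPM in control and 185.7, 70.7 and 1532 in CKO neurospheres. EdgeR called 3 of 9 higher, where it called 14.7% of all genes higher. With 1 library left out in turn it called 0 or 1, and DESeq2 with all 6 called 7 of 8. The part of these cells in the ligand values was not tested.

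Among the other Id genes, Id4 held 31.6, 163.2 and 124.9 CPM in control and 27.9, 34.9 and 39.6 in CKO neurospheres. Control 1 lay within the CKO range and controls 2 and 3 well above it, with a log2 fold change of -1.64 ± 0.54 (edgeR adjusted p = 0.0674) and, without control 1, of -2.08 ± 0.19 (adjusted p = 0.00156). The authors' deposited table listed Id4 with a signed fold change of -3.12 (FDR 0.00223). Id2 held 70.5, 149.4 and 119 CPM in control and 92.1, 66.2 and 80.5 in CKO neurospheres, again with control 1 within the CKO range (-0.50 ± 0.27; adjusted p = 0.203). Without control 1 it was -0.76 ± 0.17 (adjusted p = 0.0161). Id1 held 31.6, 34.5 and 25.6 CPM in control and 34.6, 34.4 and 40.5 in CKO neurospheres, which overlapped (0.26 ± 0.15; adjusted p = 0.220).

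The inhibitor genes did not pass with all 6 libraries. Smad7 held 3.28, 8.28 and 6.33 CPM in control and 3.01, 3.08 and 3.74 in CKO neurospheres, with control 1 in the CKO range (-0.86 ± 0.36; edgeR adjusted p = 0.119). Without control 1 it was -1.16 ± 0.25 (adjusted p = 0.0155). Bambi held 2.48, 2.13 and 1.88 CPM in control and 4.84, 3.25 and 2.76 in CKO neurospheres, without overlap, on 25 to 66 reads per library (0.74 ± 0.31; adjusted p = 0.120). It did not pass in any of the fits that left out 1 library, where its adjusted p ran from 0.109 to 0.305. Smad6 held 0.400, 1.62 and 1.81 CPM in control and 0.954, 1.68 and 1.30 in CKO neurospheres, on 5 to 29 reads, and overlapped (0.05 ± 0.56; adjusted p = 0.953). Its sign depended on the libraries, with -0.38 without control 1. Groups did not overlap for Id3, Bmp7, Bambi and Bmpr1b, which is 4 of 10, and for 47.9% of all genes tested.

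Without control 1, 2 of the 10 genes were called higher (Id3 at 0.55 and Bmp7) and 5 lower (Id2, Id4, Bmp4, Smad7 and Bmpr1b at -1.05), where 38.8% of all genes tested were called. With 1 library left out in turn, Id2, Id4, Bmp4, Bmp7 and Smad7 were each called in 1 of 6 fits, only without control 1. Their highest edgeR adjusted p there was 0.525 for Id2, 0.189 for Id4, 0.166 for Bmp4, 0.2545 for Bmp7 and 0.356 for Smad7. Control 1 lay nearer to CKO for these genes, so leaving it out was bound to widen the difference and gives no separate support. With both libraries numbered 1 left out the counts were again 2 and 5, at a background of 55.3%. By DESeq2 with all 6 libraries, Bmp7 (adjusted p = 0.0254) was called higher with Id3, and Id4 (0.00500) and Bmp4 (0.0165) lower with Bmpr1b. In this comparison DESeq2 called 32.4% of all genes.

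**Figure D3:**
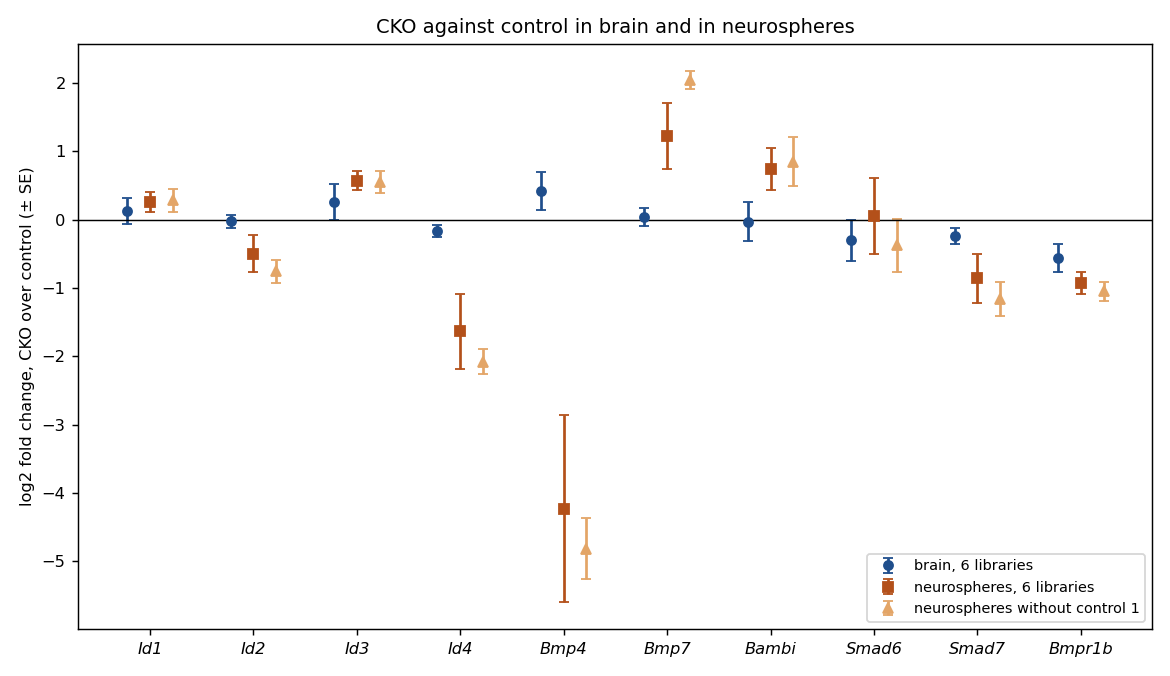
Log2 fold change of CKO over control (y axis, ± SE) for the 10 genes in brain (6 libraries), in neurospheres (6 libraries) and in neurospheres without control 1 (5 libraries). Brain values lie between -0.56 and 0.41. In neurospheres the error bars of Bmp4, Bmp7 and Id4 are shorter without control 1 and their values lie farther from 0, at -4.82, 2.05 and -2.08. Control 1 lay nearer to CKO for these genes, so leaving it out was bound to move their values this way.

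Some markers of glia and neurons also differed between control and CKO neurospheres, and the place of control 1 was not the same in every list. Oligodendrocyte lineage markers summed to 1902, 2901 and 2636 CPM in control and 1791, 1786 and 1601 in CKO neurospheres. EdgeR called 5 of the 8 lower, where it called 12% of all genes lower and 14.7% higher. Of these markers 1, Gpr17, had no read in CKO 1, and none was at 0 in another neurosphere library. Of the 8, 2 had a positive log2 fold change, Olig1 with 1017, 788.2 and 828.4 CPM in control and 1048, 1140 and 1016 in CKO, and Olig2 with 493.3, 420.5 and 419.8 against 671.9, 542.1 and 448.4. In Cspg4 control 1 was the highest of all libraries at 221.3 CPM, against 49.6 to 79.97 in the others. The marker genes in this paragraph were named after their values were seen. Of the others Sox10, a transcription factor of the lineage, held 54.5, 234.4 and 207.8 CPM in control and 1.03, 10.7 and 15.3 in CKO, and Pdgfra, the receptor of oligodendrocyte precursors, held 76.6, 310.7 and 361 against 10.2, 12.95 and 31.1. Controls 2 and 3 were highest in both, as they were for Id2, Id4, Bmp4 and Smad7, and control 1 lay between them and the CKO libraries. Astrocyte markers summed to 1405, 4375 and 3491 CPM in control and 778.6, 1478 and 1669 in CKO neurospheres, with 2 of 9 called lower and control 1 inside the CKO range. Neural stem cell and radial glia markers summed to 6895, 7764 and 8166 CPM in control and 8403, 8911 and 8654 in CKO neurospheres, so every CKO sum was above every control sum, with 0 of 8 called. In that list Nes held 878.6, 334.3 and 472.9 CPM in control and 1726, 1258 and 1047 in CKO, and Vim 3105, 2006 and 2158 against 3523, 3908 and 3795, and these were the 2 of the 8 with a positive log2 fold change. Neuron markers summed to 1846, 2242 and 1925 CPM in control and 1547, 994.6 and 1057 in CKO, with 5 of 8 called lower. Here control 1 was near control 3 and above every CKO sum. Endothelial markers summed to 5.63 to 9.68 CPM in neurospheres against 260.6 to 325.8 in brain. Microglial markers summed to 0.523 to 1.45 CPM and erythroid markers to 0.0581 to 0.512 in neurospheres. With 1 library left out in turn, lower calls were 0 to 5 of 8 oligodendrocyte markers and 0 to 8 of 8 neuron markers. They were 0 to 5 of 9 astrocyte markers and 0 to 3 of 8 stem cell markers. Over all genes 0 to 38.8% were called in these fits. By DESeq2 with all 6 libraries 6 of 10 astrocyte markers were lower and 2 of 8 stem cell markers higher. It kept 5 of 8 oligodendrocyte and 5 of 8 neuron markers lower, where it called 32.4% of all genes. The part of these cell types in the values of the Id and BMP genes was not tested.

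**Figure D4:**
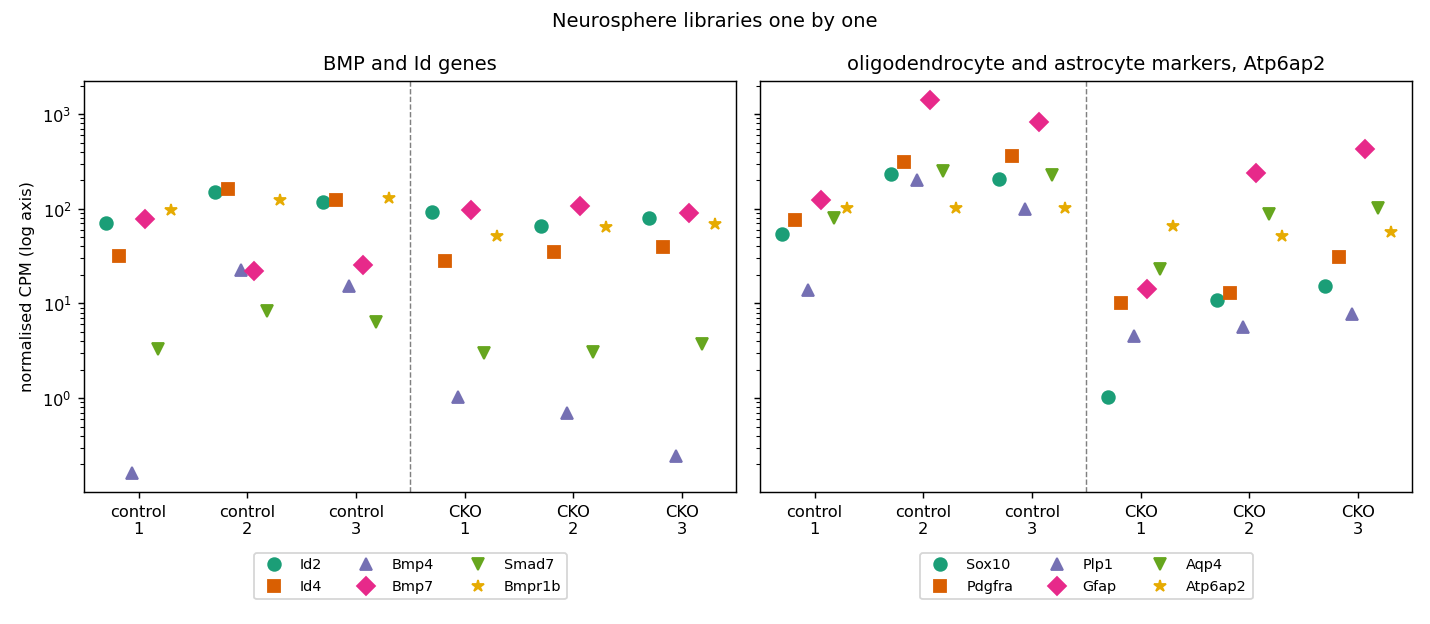
Normalised CPM (y axis, log scale) in each of the 6 neurosphere libraries, with 6 Id and BMP genes on the left and 5 glial markers with Atp6ap2 on the right; symbols of a library are set side by side. Control 1 had 0.160 CPM of Bmp4 and 78.7 of Bmp7, near the CKO libraries, while its Atp6ap2 of 101.3 CPM was near controls 2 and 3.

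The CKO effect in neurospheres minus that in brain, an interaction term over all 12 libraries, was called for none of the 10 genes by edgeR. Of 14415 genes tested 7.21% were called higher and 6.06% lower, 13.3% in all. At an unadjusted p under 0.05 were 2 of the 10, against 31.3% of all genes. DESeq2 called 1 lower (Bmp4), where it called 19.7% of all genes. The difference was -4.64 ± 1.47 for Bmp4 (adjusted p = 0.0585), -1.47 ± 0.59 for Id4 (0.116), 1.19 ± 0.55 for Bmp7 (0.166), -0.62 ± 0.37 for Smad7 (0.276) and -0.47 ± 0.32 for Id2 (0.343). For the genes called in neurospheres it was 0.31 ± 0.32 for Id3 (0.538) and -0.36 ± 0.28 for Bmpr1b (0.401). For these genes a difference between the tissues was not shown. Without neurosphere control 1, Bmp7 was called higher (1.96; adjusted p = 8.97e-05). Lower calls went to Bmp4 (-5.27; 8.97e-05), Id4 (-1.96; 0.000169), Smad7 (-0.97; 0.0105) and Id2 (-0.78; 0.0154), against a background of 28.1%. Each of these genes, Bmp7 included, was called in only 1 of the 12 fits that left out 1 library. Their edgeR adjusted p in these fits reached 0.122 for Bmp4, 0.258 for Id4, 0.294 for Bmp7, 0.576 for Smad7 and 0.659 for Id2.

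Reads inside genes but outside exons gave a second readout of the same libraries, which in rRNA-depleted total RNA includes unspliced transcripts. Id3, called on exons in neurospheres, held 40, 43 and 54 such reads in control and 81, 106 and 77 in CKO neurospheres. All CKO values were above all control values, at a log2 fold change of 1.02 ± 0.28 (edgeR adjusted p = 0.0868), where 1.96% of 11967 genes were called. Bmpr1b held 337, 246 and 345 intron reads in control and 225, 229 and 160 in CKO neurospheres (-0.51 ± 0.17; adjusted p = 0.123). In brain it held 2376, 1494 and 2597 in control and 1765, 1626 and 1166 in CKO, which overlapped (-0.43 ± 0.17; adjusted p = 0.681; background 0.307% of 14024 genes). Id4 held 54, 213 and 233 intron reads in control and 42, 70 and 49 in CKO neurospheres (-1.65 ± 0.60; adjusted p = 0.158). Bmp7 held 296, 47 and 54 in control and 209, 229 and 136 in CKO neurospheres (0.78 ± 0.49; adjusted p = 0.381). Control 1 had the most reads, but the counts in this paragraph are not scaled for library size. Its share of non-exonic reads, 14.06%, was the largest of the neurosphere libraries. Bmp4 held 2, 32 and 32 against 2, 1 and 0 and fell under the filter. No member passed on intron reads in either tissue. Id1 and Bmp4 in both tissues, and Bambi, Smad6 and Smad7 in neurospheres, had too few such reads to test. Both readouts come from the same RNA, so they are not independent replicates.

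Of 68 other genes of the BMP and TGF-beta pathways and of the bHLH partners of Id proteins, 59 were tested in brain and edgeR called 0. Of these 9 had an unadjusted p under 0.05, where 8.76% of all genes tested did, and DESeq2 called 0. In neurospheres 55 were tested, and 6 were called higher and 3 lower, against the 14.7% and 12% of all genes. At an unadjusted p under 0.05 were 19 of 55, against 42.9% of all genes. The median log2 fold change was 0.07, against -0.02 over all genes. Without control 1 the counts were 12 and 7 of 55, where 38.8% of all genes were called, and with both libraries numbered 1 left out 16 and 13 of 54, where 55.3% were. They were 1 and 0 without control 2 (background 5.91%), 1 and 0 without CKO 3 (10%) and 4 and 4 without CKO 1 (23.7%). Without control 3 and without CKO 2 they were 0 and 0, as for all genes. An unadjusted p under 0.05 was then found for 10 of 56 without control 3, against 4177 of 13459 genes. Without CKO 2 it was found for 13 of 56, against 4282 of 13497 genes. DESeq2 called 9 higher and 6 lower of 59, where it called 32.4% of all genes. The 9 genes called with all 6 libraries were also called without control 1, and among them Chrdl1 alone was called without control 2 or without CKO 3. With all libraries no change was called in the core signal transducers. Of Smad1, Smad5, Smad9 and Smad4, edgeR and DESeq2 called 0 of 4 in either tissue, with 0 at an unadjusted p. With both neurosphere libraries numbered 1 left out, 1 of the 4 was called higher and 3 had an unadjusted p under 0.05. Smad5, named after its values were seen, held 275.1, 227.4 and 240.8 CPM in control and 244.3, 318.3 and 268 in CKO neurospheres (0.16 ± 0.13; adjusted p = 0.385). With all 6 neurosphere libraries 0 of 3 tested BMP ligand genes and 0 of 6 intracellular inhibitors beyond the members passed by edgeR or DESeq2, again with 0 at an unadjusted p. Of the ligands 1 was called lower without CKO 1 and with both numbered 1 left out. Of the inhibitors 1 was called lower without control 1, and 1 higher and 2 lower with both left out.

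Among 8 tested receptor genes Acvr2b, a type II receptor of activins and BMPs, fell, from 17.5, 23.2 and 25.6 CPM in control to 12.5, 12.7 and 11.1 in CKO neurospheres (-0.87 ± 0.17; edgeR adjusted p = 0.0180). The groups did not overlap. Bmpr1a, the other main type I receptor, also named after its values were seen, held 199.6, 257.2 and 250.5 CPM in control and 203.2, 228.9 and 256.3 in CKO (-0.04 ± 0.13; adjusted p = 0.857). Of 13 secreted antagonists and modulators 2 rose. Chrdl1, a secreted chordin-like BMP antagonist, held 30.3, 16.6 and 19.1 CPM in control and 65.6, 62.3 and 52.5 in CKO (1.45 ± 0.24; adjusted p = 0.0134), and all CKO values were above all control values. Fstl1, a follistatin-like secreted protein that can inhibit BMP signalling, went from 90.1, 90.0 and 91.7 CPM to 109.2, 145.8 and 160 (0.61 ± 0.15; adjusted p = 0.0286). Nog, which encodes the BMP antagonist noggin and is named after its values were seen, held 1.12, 8.19 and 8.59 CPM in control and 1.61, 2.15 and 1.79 in CKO neurospheres (-1.67 ± 0.69; adjusted p = 0.114), with -2.17 without control 1 (adjusted p = 0.00234). Control 1 was again below the CKO libraries, and Nog was called in 1 of the 6 fits that left out 1 library. Among 4 other BMP target genes Msx1, a homeobox gene of dorsal and mesenchymal tissue, rose from 1.36, 0.683 and 1.36 CPM to 3.96, 3.08 and 2.76 (1.51 ± 0.36; adjusted p = 0.0283), on 8 to 54 reads.

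Of the E proteins, the direct partners of Id proteins, Tcf3 (E2A) rose from 138.2, 147.1 and 160 CPM in control to 188.5, 205.1 and 185.3 in CKO neurospheres (0.38 ± 0.09; edgeR adjusted p = 0.0269). Tcf12 and Tcf4 did not pass. Tcf4, named after its values were seen, went the other way (-0.33 ± 0.11, edgeR adjusted p = 0.0640). It held 672.6, 743.9 and 767.4 CPM in control and 540.6, 552.7 and 640.7 in CKO, without overlap. DESeq2 called 1 of the 3 higher and 1 lower, where it called 32.4% of all genes. With 1 library left out in turn edgeR called 0 to 1 higher and 0 to 1 lower (0 to 38.8% of all genes). Of 5 tested bHLH factors that pair with E proteins, the proneural genes Neurog2 and Neurod1 fell, while the median of the 5 was positive at 0.28. Neurog2 held 4.73, 21.1 and 25.0 CPM in control and 1.03, 3.14 and 3.33 in CKO (-2.75 ± 0.70; adjusted p = 0.0335), with -3.20 without control 1 (adjusted p = 0.00375). Neurod1 held 10.81, 9.99 and 7.99 against 5.502, 3.72 and 2.60 (-1.28 ± 0.31; adjusted p = 0.0288). Of the neuron markers 5 of 8 fell in the same comparison, as given above. In the TGF-beta arm 2 of 9 tested genes rose. The type II receptor gene Tgfbr2 went from 19.5, 7.68 and 7.31 CPM to 38.4, 36.2 and 33.1 (1.64 ± 0.39; adjusted p = 0.0286), and without control 1 the log2 fold change was 2.26 (adjusted p = 0.000958). Smad3, a transducer of TGF-beta and activin signals, went from 52.3, 41.6 and 41.8 CPM to 59.3, 72.4 and 58.9 (0.49 ± 0.14; adjusted p = 0.0460).

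Control neurospheres also differed from control brain in the wider pathway, with 14 of 63 tested genes higher and 33 lower, where 34.9% and 35.5% of all genes were called. BMP ligand genes other than the members were lower for 6 of 7 tested, with Bmp5 at -3.87 ± 0.42 (edgeR adjusted p = 7.90e-06) and Bmp6 at -2.90 ± 0.52 (0.000382) on the log2 scale. Of 9 receptor and co-receptor genes 7 were lower, among them Acvrl1 (-6.41 ± 0.69; 7.39e-06) and Eng (-4.67 ± 0.53; 1.30e-05), known from endothelial cells, and 2 were higher, Bmpr1a (0.93 ± 0.11; 1.90e-05) and Rgma (1.36 ± 0.29; 0.00122). Endothelial markers, as given above, were near 0 in neurospheres, and all 8 were called lower than in brain. Their part in the lower receptor RNA was not tested. These 6 genes were named after their values were seen.

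The genes whose profile over the 12 libraries was most like that of each Id gene were found by the root mean square (RMS) difference of centred log2 CPM among 11988 genes. The profile is dominated by the 2 tissues, and likeness says nothing of shared function. For Id1 these were Csf1 (0.130), Mecr (0.142) and 2610001J05Rik (0.153), and for Id2 Phyhipl (0.128), Ezr (0.142) and Zfp651 (0.147). For Id3 they included Anxa6 (0.161) and Rps6ka4 (0.222), and for Id4 they were Epha4 (0.204), Kcnk10 (0.324) and Tspan18 (0.330). Epha4, which encodes an ephrin receptor, held 272 to 304.3 CPM in control brain, 198.1 to 230.2 in CKO brain, 31.0 to 113 in control neurospheres and 27.5 to 44.3 in CKO neurospheres. Among the members themselves, Id1 and Id3 were the closest pair of Id genes (0.41). Id4 lay closest to Smad7 (0.37), and farthest from Bmpr1b (2.55).

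The deposited tables list coordinates that do not match GRCm38, and the sources used here do not name their build. By those, Id1 (ENSMUSG00000042745) spans chr2:152578170-152579330 with 3 exons and 1160 exon bases. Id2 (ENSMUSG00000020644) spans chr12:25143797-25147139 and Id3 (ENSMUSG00000007872) chr4:135870807-135873066. Id4 (ENSMUSG00000021379) spans chr13:48414703-48419502, with 3 exons and 3849 exon bases. Bmp4 (ENSMUSG00000021835) spans chr14:46620976-46628126 and Bmp7 (ENSMUSG00000008999) chr2:172709804-172782114. Bmpr1b (ENSMUSG00000052430), the longest, spans chr3:141542896-141875186 with 23 exons and 5962 exon bases. Bambi (ENSMUSG00000024232) spans chr18:3507922-3516404, Smad6 (ENSMUSG00000036867) chr9:63860357-63929341 and Smad7 (ENSMUSG00000025880) chr18:75500599-75529006. Bmp4 alone overlaps another listed gene, Gm15217, which held 0 to 3 exon reads per library. Of 55004 exon reads of the 10 genes, 1 (in Bmp7) was not uniquely placed, so near-identical copies do not bear on these counts.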

How the data were processed

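RNA of 12 libraries was depleted of ribosomal RNA, made into directional libraries and sequenced on a NextSeq 500, per the labels' protocols. The authors deposited, per the file headers, raw counts of reads over exons, of uniquely placed exon reads and of reads inside genes but outside exons. The submitters' processing notes name GRCm38 and mm10; the sources used here name no aligner, counting tool or strand setting, so reads of overlapping antisense genes may be mixed in. The deposited tables also hold, per the file headers, p-values with FDR from the authors' EDGE test and a signed fold change, treated as a score, with CKO over control positive; 132 further per-sample value columns were not used.

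Of 25655 genes, 3731 with exon length 0 and no read were left out. Exon counts were scaled by TMM and tested with the quasi-likelihood F-test of edgeR 4.0.16 (R 4.3.3; limma 3.58.1 loaded with it) after filterByExpr with a minimum count of 10. Brain and neurospheres were fitted separately, each with 6 libraries. The interaction and the tissue difference were fitted over all 12. P-values were adjusted over all genes tested (Benjamini-Hochberg, threshold 0.05), and SE was taken as the size of the log2 fold change over the root of its F value. CPM used TMM factors of all 12 libraries, and RPKM divides it by exon length. The method was tested on simulated data.

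The members and lists were chosen with earlier results of these data known. Named were all members, Atp6ap2, any pathway gene called in brain, up to 4 called genes per pathway list in neurospheres, and the 3 genes nearest to each Id gene (prior count 2, mean of at least 5 CPM); others were named after their values were seen, and 1 gene near Id3 is not reported here. Alternatives were DESeq2 1.42.0, other scalings, no filter, unique reads, a replicate block, a joint fit and left-out libraries. Those for the pathway list counts and pathway genes were chosen after seeing the data. Counting error by itself limits genes with few reads, such as Smad6 in neurospheres and Bmp4 in brain. The spread of Bmp4 between control neurospheres, on 2, 266 and 203 reads, goes beyond counting error.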

Additional observations from a re-analysis of the deposited data

Results flagged for a closer look

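The CKO effect differed between neurospheres and brain (neurosphere log2 fold change minus brain log2 fold change, edgeR over 12 libraries, adjusted over 14415 genes) for Atp6ap2 and for 4 of 63 tested genes of the wider pathway, where 13.3% of all genes were called. For Atp6ap2 the difference was -0.68 ± 0.15 (adjusted p = 0.0155), and for the receptor gene Acvr2b it was -0.97 ± 0.19 (adjusted p = 0.0106). It was -3.01 ± 0.73 for the proneural gene Neurog2 (adjusted p = 0.0242) and -1.44 ± 0.30 for Neurod1 (adjusted p = 0.0133). For the TGF-beta receptor gene Tgfbr2 it was 1.64 ± 0.45 (adjusted p = 0.0365). With 1 of the 12 libraries left out in turn, Acvr2b and Neurod1 kept their call in 12 of 12 fits and Neurog2 in 6, with adjusted p from 0.000508 to 0.0611. Tgfbr2 kept it in 2 of 12 fits, with adjusted p from 0.000157 to 0.0883 and a difference of 2.20 without neurosphere control 1.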

How the results depend on the processing

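Over 660 alternative values of the members, 604 kept direction and side of the threshold, 35 newly passed it, 8 lost it and 13, none of them called, changed sign. Over all alternatives run, brain calls stayed at 0, and tissue calls were 4 to 6 higher and 4 lower. In neurospheres DESeq2 called 2 higher and 3 lower, where it called 32.4% of all genes. The joint fit of 12 libraries called 4 lower, where it called 39.9% of all genes. Leaving out 1 library gave 0 to 2 higher and 0 to 5 lower (0 to 38.8% of all genes). Leaving out both numbered 1 gave 2 and 5 (55.3%). For the interaction DESeq2 called 1 lower (19.7% of all genes). Leaving out 1 library there gave 0 to 1 higher and 0 to 4 lower (5.67 to 28.1%), and leaving out both numbered 1 gave 1 and 4 (34.6%). The cause was not tested. With 1 library left out, the log2 fold change in brain ran from -0.056 (without control 1) to 0.27 for Id1, from -0.055 (without control 2) to 0.17 for Bmp7, from -0.13 to 0.027 for Id2 (positive without control 3, at 0.018, CKO 1, at 0.016, and CKO 2) and from -0.37 to 0.19 for Bambi (positive without control 3, at 0.15, CKO 1, at 0.012, and CKO 3). That of Smad6 ran from -0.38 (without control 1) to 0.39 in neurospheres, with -0.18 without CKO 2, and from -0.12 (without control 1) to 0.70 for the interaction. Without both libraries numbered 1, Id1 in brain had -0.024 and Smad6 in neurospheres -0.18. Same-numbered libraries did not deviate together in every pair (r of 0.413, 0.205 and -0.037 in brain, 0.258, -0.026 and 0.233 in neurospheres), and not every library correlated best with its own number, so the numbers were not taken as pairs. With the replicate block, members called were 0 higher and 0 lower in brain, 1 and 1 in neurospheres, 0 and 0 for the interaction and 4 and 4 for tissue, and calls over all genes in brain went from 33 higher and 27 lower to 108 and 85. Scaling by library size alone moved the median of all genes in the tissue comparison from -0.01 to -0.13, with no member reversed, and turned the interaction calls from 1040 higher and 873 lower to 705 and 1183 (54.4 to 37.3% higher) and the neurosphere calls from 1958 and 1595 to 1568 and 1875. Low reads limit Bambi and Smad6 in neurospheres. They limit Bmp4 there in control 1 and the CKO libraries, while controls 2 and 3 held 266 and 203 reads of Bmp4.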
